A study of Mus musculus with 24 samples.

Results

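Wild-type (WT) CD4 T cells cultured for 4 days with 10 ng/ml of anti-CD3e were compared with WT cells cultured for 2 days. The samples were chosen by label alone, which gave 3 arrays a group and 6 of the series' 24 arrays. The cells were naive CD4 T cells of mice of the 129SvEv background. Anti-CD3e, an antibody that triggers the T cell receptor, was given in solution together with anti-CD28, an antibody to the main costimulatory receptor, and a plate-bound antibody to hamster IgG held them together. The culture favoured T helper 2 (TH2) cells, the subset that makes type 2 cytokines. What concentration of anti-CD3e the 2-day cultures received is not in the labels, so 2 further days of culture and a change of dose cannot be told apart. Side comparisons used WT cells at day 0 (unstimulated) and at 4 days with 2.2 ng/ml, and cells of Batf1/3DKO mice (DKO), which lack both Batf and Batf3, at 2 days and at 4 days with 10 ng/ml. Each of these groups also held 3 arrays. The labels do not say whether replicates came from separate mice or cultures, so the spread behind each p-value may be a technical one.

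A naive T cell that meets its antigen first grows and divides, and then switches on the genes of an effector cell. Growth rests on ribosome production, nucleotide synthesis and MYC. The effector step rests on transcription factors such as BATF, a basic leucine zipper protein that pairs with JUN proteins and binds DNA together with IRF4 at sites where an AP-1 motif lies beside an IRF motif. BATF3 is a close relative of BATF. TH2 cells secrete IL-4, IL-5 and IL-13, and can also make IL-10, IL-21 and IL-24.

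RNA was measured on Affymetrix mouse gene arrays as an intensity, one value a gene and array. Arrays of a group correlated at 0.978 to 0.984 over all probe sets, and arrays of different groups in this comparison at 0.96 to 0.965. The median probe set had a mean intensity of 30.2 over the 24 arrays of the series. Levels at or below it may be background, so a fold from such a level is uncertain in size. The word background is used below for such levels, without detection calls. In bulk RNA, fewer cells of a kind and less RNA per cell cannot be told apart. A gene was called when its adjusted p (limma, Benjamini-Hochberg over 19938 genes) was under 0.05. Of these genes, 2058 (10.3%) were higher and 2569 (12.9%) were lower at 4 days, with a median log2 difference of -0.0017 over all genes. Counts of called list members given below can be read beside these shares. Which direction held more calls depended on the normalization: under cyclic loess 2304 genes were higher and 2163 lower. At least 2-fold, 640 genes (3.21%) rose and 581 (2.91%) fell. Larger steps were mostly rises: 147 genes rose at least 4-fold and 25 fell that far, and 35 rose at least 10-fold while 0 fell 10-fold. Many of these rises began near background. A 2-day mean at or below 30.2 was found for 65 of the 147 and 21 of the 35 genes that rose, and for 0 of the 25 that fell. The 3 arrays of one group lay wholly above those of the other for 3316 genes (16.6%) that were higher and 3960 (19.9%) that were lower, called or not.

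**Figure D1:**
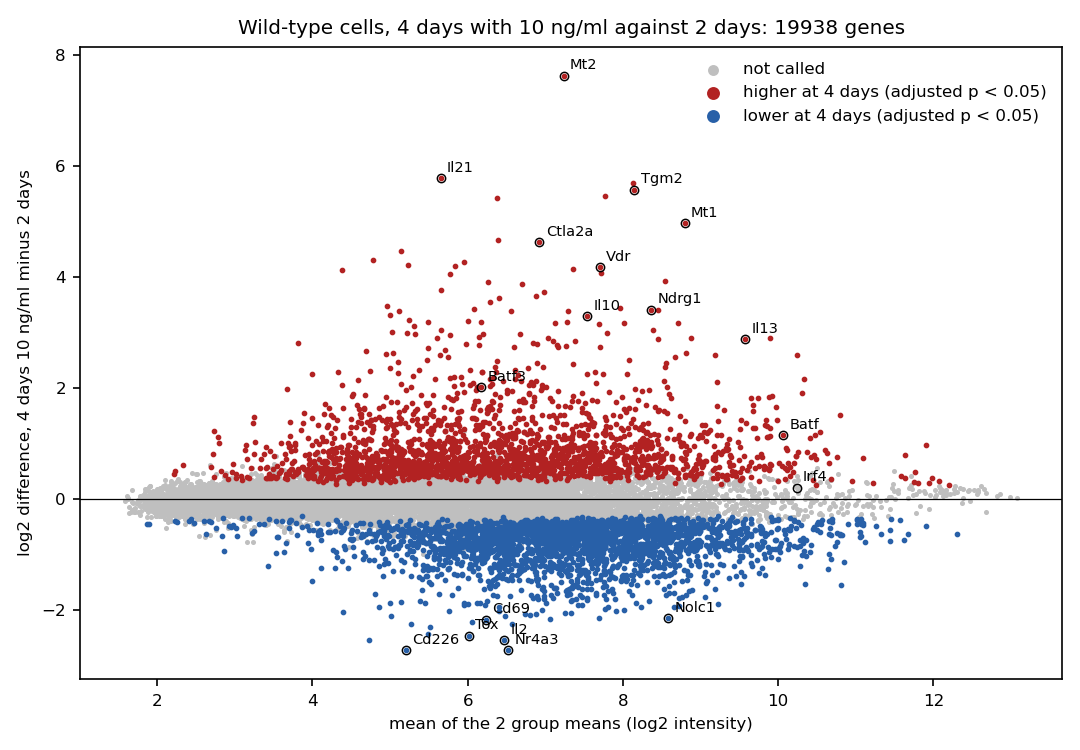
Each point is 1 of 19938 genes; the x axis is the mean of both groups' mean log2 intensities and the y axis the log2 difference, 4 days with 10 ng/ml minus 2 days, in WT cells. Called rises (red, 2058) reach a log2 difference of 7.63 for Mt2, whereas called falls (blue, 2569) reach -2.72 for Cd226.

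Batf rose further between the time points while its partner Irf4 was already high at 2 days. Batf read 819, 781 and 565 on the 3 arrays at 2 days and 1696, 1497 and 1593 at 4 days, a 2.24-fold (95% CI 1.79 to 2.79) rise (adjusted p = 3.83e-06). The arrays did not overlap, and day 0 arrays stood at 114, 156 and 134. Batf3 was near background at 2 days (30.8, 44.2 and 32.4) and clearly above it at 4 days (156, 173 and 109.7), a 4.06-fold (95% CI 3.10 to 5.32) rise. Irf4 read 1124, 1097 and 1148 at 2 days and 1399, 1197 and 1315 at 4 days. Its arrays at 4 days lay above those at 2 days, but the 1.16-fold difference did not pass the test (95% CI 0.853 to 1.57, adjusted p = 0.583).

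Among the 19 BATF, IRF and AP-1 factors measured, 7 were higher and 1 lower, with a median log2 difference of 0.21. Fosl2, a FOS-family partner of JUN proteins, rose from 84.7, 92.0 and 65.4 to 521, 581 and 514 (6.73-fold, 95% CI 5.30 to 8.55). Jun (3.04-fold), Junb (2.24-fold) and the stress-induced factor Atf3 (2.80-fold) also rose. The family members Jund, Fos, Fosb and Fosl1 did not pass the test, with log2 differences of -0.18, -0.48, -0.14 and -0.30. Irf1 was higher (1.53-fold), but as the mean of its 2 probe sets the log2 difference was 0.45 in place of 0.61 and was not called. The 1 lower factor, Irf3 (log2 difference -0.46, adjusted p = 0.0189), was lost, at -0.42, -0.39, -0.44 and -0.39, when replicate 2 or 3 at 2 days or replicate 2 or 3 at 4 days was left out, and at -0.36 under cyclic loess. Irf2, Irf5, Irf7, Irf8, Irf9 and Batf2 did not pass the test, and their log2 differences lay between -0.05 and 0.28. Without replicate 3 at 4 days Irf2 (0.45) and Irf9 (0.65) were called, Irf2 also under cyclic loess (0.46).

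Type 2 cytokine genes such as Il21 and Il10 rose between 2 and 4 days, though Il4 itself did not pass the test. Of 10 measured, 6 were higher and 1 lower, with a median log2 difference of 1.43. Without Il31, whose call was lost in some alternatives, 5 were higher. Il21, which acts on B and T cells, was at background at 2 days (5.84, 6.30 and 8.29) and read 386, 335 and 396 at 4 days, a 55.2-fold (95% CI 41.7 to 73.0) rise (adjusted p = 4.05e-16). All 3 arrays at 4 days stood far above all 3 at 2 days, and day 0 arrays read 5.82, 6.44 and 7.06. The anti-inflammatory cytokine Il10 rose from 59.4, 77.7 and 38.9 to 462, 410.5 and 897 (9.82-fold, 95% CI 6.78 to 14.2). Its highest array at 4 days was replicate 3, which was also the highest for Il13 and Il5.

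Il13, the TH2 cytokine that drives mucus and tissue responses, rose from 258, 233 and 336 to 1659.9, 1614 and 3052 (7.39-fold, 95% CI 4.52 to 12.1). Il24, a member of the IL-10 family, went from 193, 129 and 102 to 1020.5, 1188 and 1538 (9.03-fold, 95% CI 5.43 to 15.02). Il5, the eosinophil growth factor, stayed dim (9.76, 9.94 and 9.32 at 2 days, 30.2, 28.9 and 75.6 at 4 days) and rose 4.18-fold (95% CI 2.97 to 5.88). Il4 read 237, 219 and 230.3 at 2 days and 264, 342 and 386 at 4 days. These arrays did not overlap, yet the 1.43-fold difference did not pass the test (95% CI 0.861 to 2.37, adjusted p = 0.366). In a fit on these 6 arrays alone, without the other groups, it was called (adjusted p = 0.0297).

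Il31 was higher (42.8, 26.4 and 33.2 and 36.5, 47.2 and 116, 1.75-fold), with overlapping arrays, and the call was lost when replicate 2 or 3 at 2 days or replicate 3 at 4 days was left out, with log2 differences of 0.63, 0.8 and 0.31 in place of 0.81. It was also lost under quantile normalization (0.72), with array weights (0.66), with an offset of 16 (0.61) and in the fit on the compared groups alone (adjusted p = 0.15), and without Il31 5 of the 10 genes were higher. Csf2, which encodes GM-CSF, was lower near background (13.6, 16.1 and 23.1 and 11.6, 11.9 and 12.9, adjusted p = 0.033). That call was lost without replicate 3 at 2 days or replicate 1 or 2 at 4 days, with log2 differences of -0.29, -0.47 and -0.49 in place of -0.50, with an offset of 16 (-0.25) and in the fit on the compared groups alone (adjusted p = 0.0698). Il3 varied more between replicates than between groups, at 24.6, 12.7 and 120.4 and 51.9, 10.2 and 140.0, and its log2 difference of 0.33 ran from -0.54 to 1.35 as single arrays were left out, and Il9 stayed at background (16.1, 11.9 and 14.8 and 12.2, 22.7 and 13.9).

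Other cytokine genes moved both ways. Of 31 measured, 9 were higher and 6 lower, with a median log2 difference of 0.03. Ccl5, a chemokine of effector and memory T cells, rose from 34.4, 32.4 and 31.0 to 688, 589.7 and 200.4 (13.3-fold, 95% CI 9.06 to 19.5). Inhba, the activin A subunit, rose from 192, 128 and 197 to 1153, 1594 and 1122 (7.54-fold, 95% CI 5.16 to 11.02). The growth factor gene Tgfb3 rose 7.996-fold and the enkephalin precursor gene Penk 6.62-fold, both from background. Smaller rises were those of Ltb (2.24-fold), Tnfsf14 (1.82-fold), Lif (1.68-fold), Ebi3 (1.75-fold) and Il16 (1.40-fold). The call for Lif was lost without replicate 1 or 2 at 2 days or replicate 1 or 3 at 4 days (log2 differences of 0.67, 0.69, 0.76 and 0.61). That for Ebi3 was lost without replicate 2 at 4 days (0.68), and that for Il16 without replicate 3 at 2 days (0.38).

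The 6 that fell were Il2, Tnf, Cd40lg, Lta, Tnfsf11 and Fasl. Il2, the T cell growth factor, read 137, 122 and 381 at 2 days and 26.4, 19.1 and 65.5 at 4 days, a 5.77-fold (95% CI 3.04 to 10.98) fall (adjusted p = 0.000131), with the highest array of each group from replicate 3. Tnf fell from 182, 222 and 440.1 to 89.8, 56.9 and 122 (3.06-fold, 95% CI 1.94 to 4.83). Cd40lg, the helper ligand for B cells, fell from 210.4, 246 and 297 to 52.3, 93.5 and 79.5 (3.41-fold, 95% CI 2.57 to 4.52). Lta (2.35-fold) and Tnfsf11, which encodes RANKL (2.32-fold), fell too. Fasl was lower (1.63-fold), but its arrays overlapped and the call was lost without replicate 1 at 2 days or replicate 1 or 3 at 4 days, with log2 differences of -0.46, -0.57 and -0.62 in place of -0.70, and in the fit on the compared groups alone (adjusted p = 0.0632). Cytokines of other subsets, Ifng, Il17a and Il17f, stayed at or below background in both groups, with means of 11.4, 16.5 and 25.0 at 2 days and 10.6, 15.6 and 25.4 at 4 days.

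**Figure D2:**
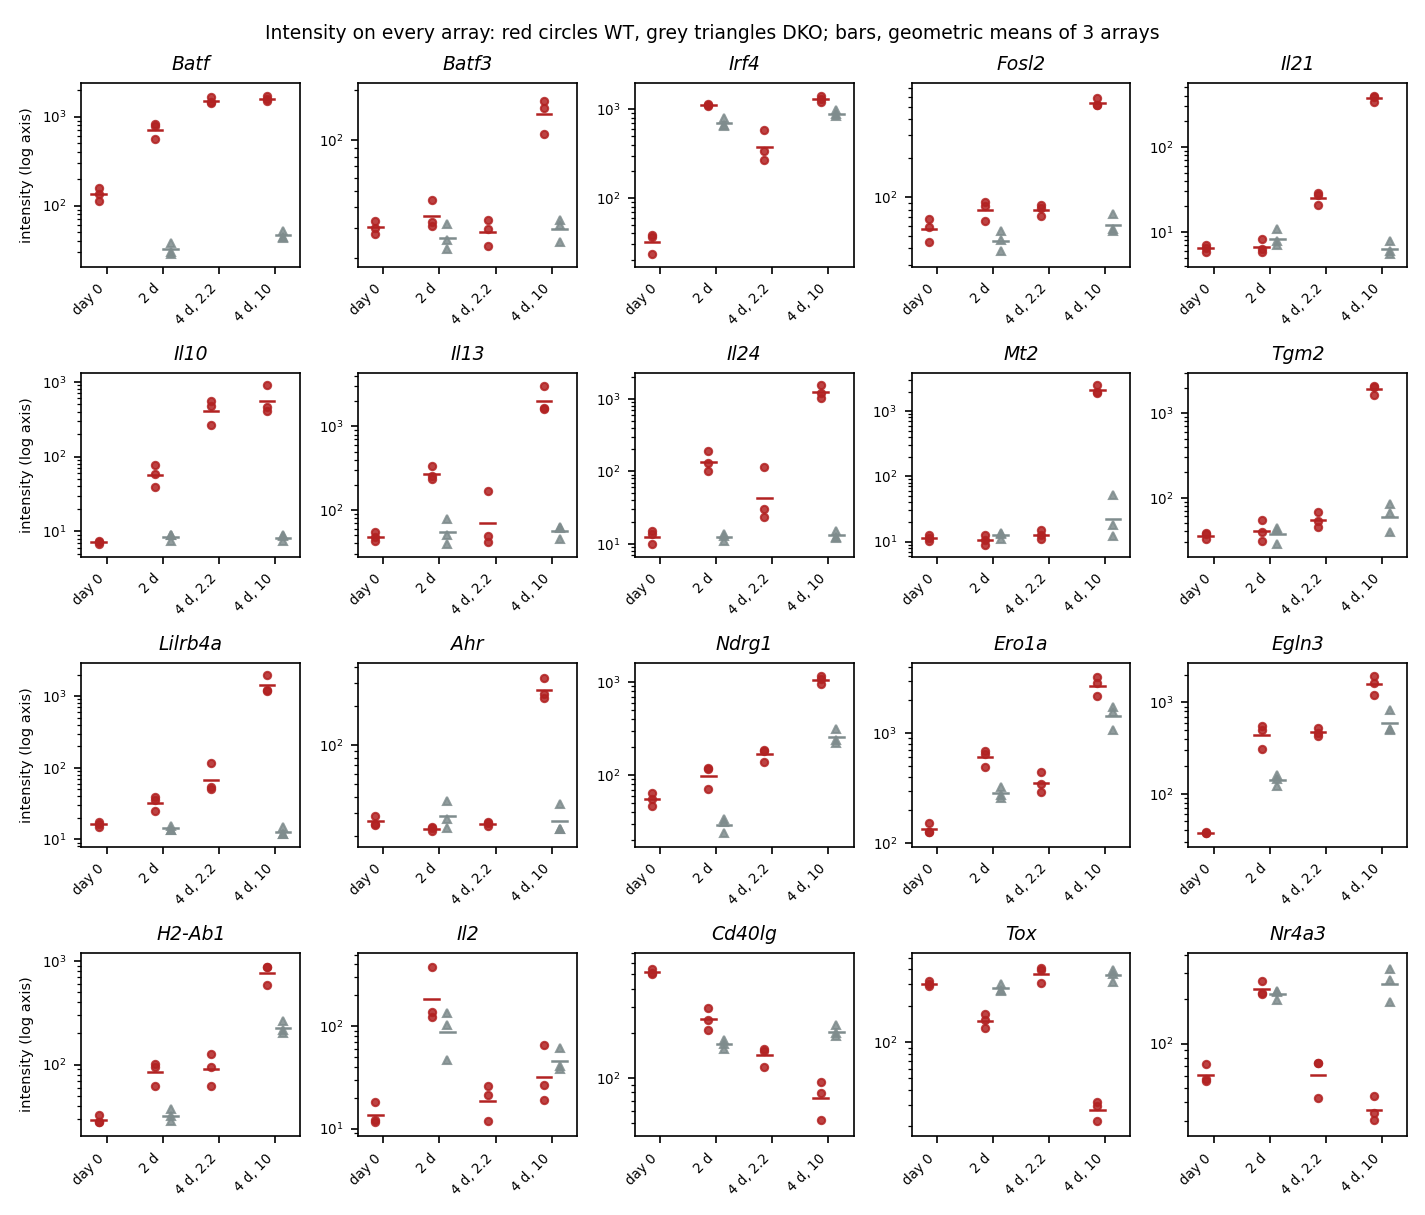
Intensity (log axis) of 20 genes on every array of WT cells at day 0, 2 days, 4 days with 2.2 ng/ml and 4 days with 10 ng/ml (red circles) and of DKO cells at 2 days and 4 days with 10 ng/ml (grey triangles); bars are geometric means of 3 arrays. Il21, Mt2, Tgm2, Lilrb4a and Ahr are high on the 3 WT arrays at 10 ng/ml, whereas Ndrg1, Ero1a, Egln3 and H2-Ab1 also rise in DKO cells.

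The largest rise of all was that of Mt2, a metallothionein that binds zinc and copper. It read 12.6, 10.6 and 8.96 at 2 days and 1889, 1944 and 2532 at 4 days, a 198-fold (95% CI 129.6 to 302) rise (adjusted p = 6.43e-15), and all 3 day 0 arrays were at background (12.7, 10.1 and 11.5). Its neighbour Mt1 rose from 105, 124 and 28.7 to 2059, 1982 and 2855 (31.5-fold, 95% CI 19.0 to 52.2). Replicate 3 at 2 days was low for Mt1, and without it the log2 difference was 4.31 in place of 4.98. Mt1 and Mt2 are similar in sequence and may share probe signal. Where 16 was added to every intensity before log2, the log2 difference of Mt2 was 6.31 and that of Il21 4.09, in place of 7.63 and 5.79, so the size of a fold from background depends on that choice. The same holds for Cd63, Pth and Cysltr1, whose log2 differences of 4.31, 4.47 and 4.21 became 2.63, 2.9 and 2.84.

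The next largest rises were those of Il21, described above, and of receptors of the LILRB4 family and an enzyme. Lilr4b, a receptor gene of the LILRB4 family, went from 58.0, 34.5 and 26.4 to 1839.6, 1646 and 2459.8 (52.0-fold, 95% CI 36.3 to 74.7). Its relative Lilrb4a, an inhibitory receptor gene, went from 35.3, 38.6 and 24.8 to 1183, 1219 and 1975 (43.9-fold, 95% CI 31.1 to 61.9). These near-copies may also share signal. Tgm2, which encodes the cross-linking enzyme transglutaminase 2, rose from 54.3, 39.6 and 30.6 to 2053, 1659 and 2107 (47.8-fold, 95% CI 34.5 to 66.2). Ifitm3, an interferon-induced membrane protein gene that blocks viral entry, rose from 19.7, 10.6 and 8.11 to 444, 387 and 788 (43.1-fold, 95% CI 23.1 to 80.4). For each of these genes every array at 4 days lay above every array at 2 days, as the rule for naming the largest rises required.

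Gpnmb, a membrane glycoprotein gene, rose 25.6-fold (21.3, 15.8 and 13.1 to 463, 345 and 462). Ctla2a, which encodes a cathepsin inhibitor, rose 24.7-fold (26.8, 31.6 and 15.9 to 687, 490.2 and 608). Pth, the parathyroid hormone gene, rose 22.2-fold (6.27, 6.96 and 7.33 to 122, 84.4 and 341), with replicate 3 high at 4 days, as it was for Timp1, an inhibitor of matrix proteases (13.7, 13.9 and 12.6 to 236, 158 and 465, 19.3-fold). The tetraspanin gene Cd63 rose 19.9-fold, the leukotriene receptor gene Cysltr1 18.5-fold and Gem, a small GTP-binding protein gene, 18.4-fold. Vdr, the vitamin D receptor, rose 18.1-fold (95% CI 13.6 to 24.1), from 44.5, 61.9 and 40.8 to 976, 919.6 and 745.

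RefSeq promoter windows (GRCm38.p6) were searched for the letters that AP-1 factors bind. The motif was TGANTCA (AP-1), on both strands, in the 250 bases upstream of a gene's start. Of the 15 largest rises, 11 had a window (12 windows), and 4 of the 12 windows (33.3%) held the motif, against 6.04% of 19177 windows of all genes tested. The arrays' own build is not given in the sources used here, and genes were matched to windows by symbol. The 4 windows belong to 3 genes, Mt2, Ifitm3 and Ctla2a, the last through overlapping windows that hold the same site. Of the 12 windows of the 15 largest falls, 0 held it. Among the other sets searched, it was in 0 of 4 windows of type 2 cytokine genes that were higher. It was in 1 of 15 windows (6.67%) of glycolysis and hypoxia targets that were higher, and in 0 of 19 of ribosome biogenesis genes that were lower. Prdm1 was added after its values were seen. The stretches are shown because they hold the motif, which is in capitals, 5′ to 3′ along the gene's own strand:
Mt2, chr8:94172488-94172577, plus strand: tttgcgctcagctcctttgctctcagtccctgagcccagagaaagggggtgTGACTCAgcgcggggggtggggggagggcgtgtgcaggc
Ifitm3, chr7:141010805-141010894, minus strand: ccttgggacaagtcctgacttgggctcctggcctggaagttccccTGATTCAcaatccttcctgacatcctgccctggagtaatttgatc
Ctla2a, chr13:60936716-60936805, minus strand: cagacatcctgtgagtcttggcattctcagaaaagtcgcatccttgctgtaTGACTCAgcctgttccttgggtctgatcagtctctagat
Prdm1, chr10:44458759-44458848, minus strand: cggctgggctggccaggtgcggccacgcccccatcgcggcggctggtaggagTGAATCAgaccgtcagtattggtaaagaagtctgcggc
In these stretches the match begins 79 bases upstream of the start in Mt2, 105 in Ifitm3, 129 in Ctla2a and 48 in Prdm1. A match describes the letters only, and binding was not measured.

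Several transcription factors of effector cells rose. Of 16 measured, 8 were higher and 1 lower, with a median log2 difference of 0.5. Ahr, a ligand-activated factor that responds to aromatic compounds, rose from 23.2, 22.9 and 21.7 to 249.8, 231 and 329 (11.8-fold, 95% CI 9.27 to 15.1). Prdm1, which encodes BLIMP-1, a repressor that marks terminal effector cells, rose from 20.7, 21.3 and 11.9 to 136, 119 and 139 (7.51-fold, 95% CI 5.74 to 9.83). Hif1a, the oxygen-regulated subunit of HIF-1, rose from 569, 595 and 527 to 1759, 1799 and 1796 (3.17-fold, 95% CI 2.70 to 3.73). Its arrays were tightly grouped at both times. The 1 lower member was the T-box factor Eomes (34.4, 29.2 and 79.0 and 17.96, 19.4 and 20.1), highest on replicate 3 at 2 days, and without that array its log2 difference was -0.73 in place of -1.17 and was not called.

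Of 15 TH2 regulators and receptors measured, 8 were higher and 0 lower (median log2 difference 0.39). Ecm1, a secreted protein gene needed for TH2 cells to leave lymph nodes, rose from 387, 339 and 316 to 2815, 2761 and 2219 (7.46-fold, 95% CI 5.65 to 9.85). Pparg, a nuclear receptor, rose 2.88-fold (95% CI 2.34 to 3.54), from 76.6, 73.5 and 68.7 to 227, 202 and 202. Bhlhe41 rose 2.80-fold but stayed dim, at 8.04, 17.96 and 24.1. The TH2 master regulator Gata3, named after its values were seen, was high at both times (1325, 1241 and 1298 and 1576, 1631 and 1233) and did not pass the test (adjusted p = 0.353).

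Among receptors for costimulation and inhibition 13 of 27 were higher and 2 lower (median log2 difference 0.32). Tnfrsf8, which encodes CD30, rose from 40.7, 28.6 and 30.4 to 495, 404 and 359 (12.7-fold, 95% CI 9.45 to 17.0). The inhibitory receptor Tigit rose from 75.3, 71.4 and 77.8 to 912, 691 and 871 (10.9-fold, 95% CI 7.63 to 15.7), and Tnfrsf9, the costimulatory receptor 4-1BB, 3.38-fold (95% CI 2.66 to 4.29). The 2 that fell were Icos (2.22-fold) and Slamf6 (2.00-fold), and Pdcd1, the gene of PD-1, did not pass the test (52.7, 105 and 72.3 and 59.6, 64.6 and 67.3). These 3 genes were named after their values were seen.

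Cytokine receptor, STAT and SOCS genes had 12 of 24 members higher and 0 lower (median log2 difference 0.54). Il1r2, the decoy receptor for IL-1, rose from 13.9, 14.4 and 11.6 to 220.4, 291 and 166 (16.6-fold, 95% CI 12.5 to 22.2). Il12rb2, an IL-12 receptor chain, rose from 29.7, 29.0 and 27.9 to 291, 242 and 392 (10.4-fold, 95% CI 7.75 to 14.1). Il21r, the receptor for IL-21, rose 2.95-fold (95% CI 2.44 to 3.58) from a level already well above background. Socs3, a feedback inhibitor of STAT3 signalling, rose 5.40-fold (95% CI 4.30 to 6.78), from 77.4, 64.9 and 70.3 to 417, 375 and 355.

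Several genes that respond to receptor triggering fell. In the list of receptor-induced and exhaustion factors, 8 of 16 were lower and 1 higher (median log2 difference -0.51). Nr4a3, an orphan nuclear receptor induced within hours of receptor triggering, fell from 220.2, 218 and 265 to 30.3, 33.8 and 44.1 (6.55-fold, 95% CI 4.66 to 9.23). Tox, a factor of developing and exhausted T cells, fell from 131, 151 and 169 to 29.3, 31.7 and 22.0 (5.47-fold, 95% CI 4.43 to 6.76). For both genes no array at 4 days reached the lowest array at 2 days, as the rule for naming the largest falls required. Rel, an NF-kappaB subunit, fell 1.75-fold and Nfatc1, a calcium-regulated factor, 1.71-fold. The 1 higher member was Crem (log2 difference 1.26), named after its values were seen.

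The 15 largest falls also held surface and signalling genes of resting or newly triggered T cells. Cd226, an activating receptor that shares ligands with TIGIT, fell from 70.3, 95.6 and 121 to 16.3, 12.1 and 14.5 (6.58-fold, 95% CI 4.65 to 9.33). The early activation marker Cd69 fell from 154, 107 and 218 to 50.2, 28.2 and 28.1 (4.49-fold, 95% CI 2.96 to 6.82), and Trat1, an adaptor bound to the T cell receptor, from 91.4, 90.9 and 119 to 24.1, 22.3 and 15.5 (4.91-fold, 95% CI 3.37 to 7.15). Gen1, a nuclease that resolves Holliday junctions, fell from 303, 249.8 and 297 to 62.3, 64.8 and 63.1 (4.46-fold). Kbtbd8, a ubiquitin ligase adaptor, fell 4.71-fold.

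Genes of naive and memory T cells were split. Of 22 measured, 9 were higher and 4 lower (median log2 difference 0.3). Btg2, an antiproliferative gene, rose 3.56-fold (95% CI 2.80 to 4.53) and Foxo1, a factor of quiescent cells, 2.59-fold (95% CI 2.03 to 3.31). Foxp1, which also keeps naive cells quiescent, fell from 288, 235 and 313 to 109, 99.1 and 79.8 (2.91-fold, 95% CI 2.38 to 3.55), and Klf3 fell 2.24-fold (95% CI 1.81 to 2.77). Most of the list stayed below its naive level: 19 of 22 members had a mean at 4 days at or below that of day 0, and 2 of 22 were above it at 2 days.

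Components and inhibitors of receptor signalling moved as well. Of 17 T cell receptor signalling genes, 9 were higher and 4 lower (median log2 difference 0.37). Themis, a thymocyte signalling adaptor, rose 2.31-fold, the CD3 chains Cd3g and Cd3d 2.15-fold and 1.70-fold, and the kinase Fyn fell from 244, 242 and 243 to 132, 127 and 128 (1.88-fold, 95% CI 1.597 to 2.22). Of 20 signalling inhibitors, 9 were higher and 3 lower (median log2 difference 0.34). Leaving out replicate 3 at 4 days, or fitting the compared groups alone, left 1 lower. The share of lower inhibitors was near the 12.9% of all genes. Tnfaip3, which encodes A20, an inhibitor of NF-kappaB, rose from 82.8, 86.0 and 84.7 to 433, 422 and 361 (4.78-fold, 95% CI 3.73 to 6.13). Rgs1, a regulator of G protein signalling, rose 3.95-fold (95% CI 3.02 to 5.18), the ERK phosphatase gene Dusp6 3.04-fold, and Rnf128, the anergy-linked ubiquitin ligase GRAIL, 2.74-fold from background.

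Ribosome production genes fell almost as a block. Of 22 measured, 21 were lower and 1 did not pass the test, with a median log2 difference of -1.58. Over all genes 12.9% were lower and the median was near 0. This list was chosen with earlier results of these data known, so the contrast is a description and not a test. Nolc1, a nucleolar phosphoprotein, fell from 764, 812 and 801 to 132, 169 and 257 (4.42-fold, 95% CI 3.22 to 6.07). Polr1b, the second subunit of RNA polymerase I, which makes ribosomal RNA, fell from 231, 214 and 233 to 44.7, 46.2 and 74.1 (4.23-fold, 95% CI 3.16 to 5.66), and its largest subunit, Polr1a, 2.94-fold. Utp20, part of the small-subunit processome, fell from 237, 235 and 271 to 58.2, 61.1 and 66.5 (4.00-fold, 95% CI 3.35 to 4.77). Nop56 (3.68-fold) and the helicase Ddx21 (3.81-fold) fell as well. Npm1, the 1 member that did not pass the test, had a log2 difference of -0.13 and was named after its values were seen.

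The ribosome list had risen by a median of 1.61 (log2) from day 0 to 2 days, in 22 of 22 members, and at 4 days its median stood 0.12 above day 0, with 8 of 22 members at or below their day 0 mean. Outside the list, 3 of the other largest falls are also nucleolar genes, Rrp15 (4.37-fold, 95% CI 3.22 to 5.95), Ccdc86 (4.27-fold) and Mdn1 (4.20-fold), the last an enzyme that matures the large ribosomal subunit. They were named for their size, and no list was tested for them.

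Genes that supply building blocks for growth also fell. Of 12 polyamine and purine synthesis genes, 9 were lower and 1 higher (median log2 difference -1.24). Gart, a trifunctional purine enzyme, fell from 438, 419 and 430.0 to 96.0, 96.7 and 142 (3.91-fold, 95% CI 3.10 to 4.93), Ppat, the entry enzyme of purine synthesis, 2.80-fold, and Atic 2.26-fold. Mthfd1, which makes the folates that purine synthesis needs, fell 4.11-fold (95% CI 3.00 to 5.64), the glycine cleavage gene Gcsh 4.19-fold (95% CI 2.57 to 6.83), and Shmt1, the cytosolic serine to glycine enzyme, 3.35-fold (95% CI 2.68 to 4.19). The 1 member that rose was Sat1, which breaks polyamines down (log2 difference 1.03, named after its values were seen).

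Of 16 aminoacyl-tRNA synthetases, 11 were lower and 1 higher (median log2 difference -0.51), and leaving out replicate 2 at 4 days left 7 lower. Tars fell 1.92-fold, Hars 1.74-fold, Rars 1.70-fold and Nars 1.44-fold. The list stayed above its naive level, with 16 of 16 means at 4 days higher than at day 0. Of 14 cytosolic chaperones, 9 were lower and 0 higher (median log2 difference -0.49). Cct3, a subunit of the chaperonin that folds actin and tubulin, fell 2.57-fold (95% CI 1.98 to 3.34) and Cct5, of the same complex, 1.42-fold. The mitochondrial chaperonin gene Hspd1, which the list also holds, fell 2.19-fold, and Hspa4 1.504-fold. Of 19 respiratory chain genes, 8 were lower and 0 higher (median log2 difference -0.33), among them cytochrome c, Cycs (2.31-fold, 95% CI 1.73 to 3.09), Ndufs1 (1.63-fold), Uqcrc1 (1.46-fold) and Atp5a1 (1.41-fold).

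**Figure D3:**
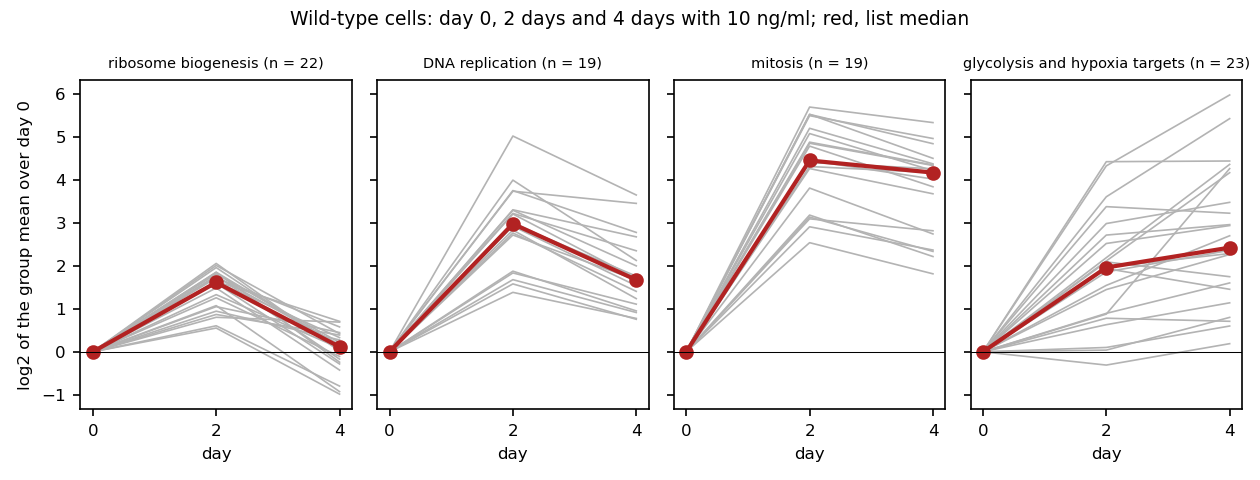
Log2 of the WT group mean over that gene's day 0 mean at day 0, 2 days and 4 days with 10 ng/ml; grey lines are genes of 4 lists and red points the list medians. Ribosome biogenesis genes rise by a median of 1.61 and return to 0.12, DNA replication genes go from 2.98 to 1.67 and mitosis genes from 4.45 to 4.17, while glycolysis and hypoxia targets go from 1.96 to 2.42.

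Genes of DNA replication and of mitosis fell. In the replication list 18 of 19 were lower, with a median log2 difference of -1.05. Tyms, which makes thymidine nucleotides, fell from 552, 612 and 479 to 138, 136 and 176 (3.66-fold, 95% CI 2.83 to 4.73). The helicase subunits Mcm2 and Mcm5 fell 2.61-fold (95% CI 2.15 to 3.17) and 2.56-fold (95% CI 2.07 to 3.16), and Mcm10, which helps to start replication, 2.82-fold (95% CI 2.23 to 3.57). The 1 member that did not pass the test was Mcm6 (log2 difference -0.28, named after its values were seen). Replication-dependent histone genes, made in S phase, had 5 of 6 lower (median log2 difference -0.98), such as H1f1 (2.65-fold), H2ac4 (2.79-fold), H1f5 (2.10-fold) and H2ac15 (1.85-fold). Histone genes have near-copies, so their probe sets may share signal.

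In the mitosis list 15 of 19 were lower, with a median of -0.59. The spindle motors Kif23 and Kif11 fell 2.10-fold (95% CI 1.80 to 2.44) and 2.03-fold (95% CI 1.73 to 2.39), and the checkpoint genes Cdc20 and Bub1b 1.95-fold and 1.92-fold. All 19 members stayed above day 0 at 4 days, and Kif11, for example, read 12.5, 10.6 and 13.4 at day 0, 533, 563 and 583 at 2 days and 272, 261 and 294 at 4 days. The difference between the medians of the replication and mitosis lists was not tested.

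Among cyclins and their inhibitors 4 of 19 were higher and 7 lower (median log2 difference 0.02). The CDK inhibitors Cdkn1b, p27, and Cdkn2d, p19, rose 2.73-fold (95% CI 2.04 to 3.65) and 2.20-fold (95% CI 1.75 to 2.78), and Ccng2, an unusual cyclin of arrested cells, 3.87-fold (95% CI 2.89 to 5.18). Ccne1, the cyclin that drives entry to S phase, fell 2.12-fold (95% CI 1.68 to 2.68). Of 15 chromatin and DNA methylation enzymes, 3 were higher and 6 lower (median log2 difference -0.15). Ezh2, the Polycomb methyltransferase, fell from 1060.3, 997 and 1111 to 518, 506 and 450.5 (2.15-fold, 95% CI 1.83 to 2.52). Uhrf1 and Dnmt1, which copy DNA methylation at replication, fell 2.58-fold and 1.69-fold, whereas the histone deacetylase gene Hdac7 rose 2.21-fold (95% CI 1.86 to 2.62).

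Of 13 apoptosis genes, 6 were higher and 2 lower (median log2 difference 0.38), and without replicate 1 at 4 days 3 were higher. Over all genes 10.3% were higher and 12.9% lower, so the share of lower apoptosis genes was near that of all genes. Birc3 and Cflar, inhibitors of caspase activation, rose 2.02-fold and 1.94-fold. The 2 lower genes were Bid, which links death receptors to mitochondria (2.03-fold), and Bcl2l1, the survival gene of BCL-XL (1.76-fold).

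In the list of glycolysis and hypoxia targets, 12 of 23 were higher and 1 lower, with a median log2 difference of 0.49. Ndrg1, a stress gene and a target of HIF-1, rose from 115, 119 and 70.8 to 1157, 946 and 1085 (10.7-fold, 95% CI 8.18 to 13.9). Ero1a, an oxidase that forms disulfide bonds, rose from 694, 649 and 490.4 to 2833, 2179.6 and 3233 (4.49-fold, 95% CI 3.40 to 5.93). The glucose transporter gene Slc2a3 rose 4.30-fold (95% CI 3.05 to 6.06), and Egln3, an oxygen-sensing hydroxylase that marks HIF for decay, 3.56-fold (95% CI 2.60 to 4.89). Replicate 3 at 2 days was the lowest array for all 4 genes, for example at 165 against 339 and 371 for Slc2a3. Among the glycolytic enzymes, named after their values were seen, Pfkp (1.76-fold), Pfkm (1.63-fold) and Pgk1 (1.41-fold) were higher. Aldoa, Pkm, Tpi1, Hk2 and Ldha did not pass the test, with log2 differences of 0.42, 0.32, 0.02, -0.17 and -0.34, though Aldoa was called in 5 and Pkm in 6 of 16 alternatives. The 1 lower member was Pfkl (log2 difference -0.49), and that call was lost without replicate 1 or 2 at 2 days (-0.45 and -0.42) or replicate 1 or 2 at 4 days (-0.55 and -0.33), under cyclic loess (-0.38) or quantile normalization (-0.39), and in the fit on the compared groups alone (adjusted p = 0.0517).

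The hypoxia response core, ACGTG, was looked for in the same windows on both strands, a motif chosen after the values were seen. Of the 12 list members that were higher, 10 had a window (15 windows), and 9 of the 15 (60%) held ACGTG, against 18.4% of the 19177 windows of all genes tested. Among 19 windows of ribosome biogenesis genes that were lower, 1 held it (5.26%). It was in 33.3% of the 12 windows of the 15 largest rises, in 16.7% of the 12 windows of the 15 largest falls and in 1 of 4 windows (25%) of type 2 cytokine genes that were higher. The glycolysis and hypoxia list was drawn up to hold hypoxia targets, so its share of ACGTG above that of all genes may follow from that choice. Members of that list not called higher were not searched as a set. Pfkm is among the matches through more than 1 window. The stretches of Egln3 and Ero1a are shown for this motif, in capitals, which reads CACGT where it lies on the other strand:
Egln3, chr12:54204035-54204124, minus strand: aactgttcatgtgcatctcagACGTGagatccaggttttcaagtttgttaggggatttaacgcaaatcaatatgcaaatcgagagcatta
Ero1a, chr14:45318593-45318682, minus strand: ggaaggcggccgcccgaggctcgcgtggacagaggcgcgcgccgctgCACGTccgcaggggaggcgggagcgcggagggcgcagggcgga
The match begins 229 bases upstream of the start in Egln3 and 63 in Ero1a. HIF-1 binding was not measured.

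Other stress and metabolic lists were split, where over all genes 10.3% were higher and 12.9% lower. Of 26 ATF4, amino acid and one-carbon genes, 5 were higher and 7 lower (median log2 difference 0.07), 4 were lower without replicate 1 of either group, and 8 were higher in the fit on the compared groups alone. Ddit3, which encodes CHOP, rose 3.17-fold (95% CI 2.32 to 4.32), the glutathione-degrading enzyme gene Chac1 2.44-fold and Cth, which makes cysteine, 2.64-fold. Of 17 metallothionein and antioxidant genes, 6 were higher and 6 lower. The lower ones included Gclm, a subunit of the glutathione-making ligase (2.75-fold), and Txnrd1, thioredoxin reductase (2.37-fold), while Hmox1, which breaks down heme and was named after its values were seen, rose 2.28-fold. Of 22 secretory pathway genes, 5 were higher and 2 lower (median log2 difference 0.07): Creb3l2, a factor that expands the secretory pathway, rose from 16.5, 21.1 and 17.7 to 117, 123 and 81.0 (5.73-fold, 95% CI 4.53 to 7.26), Xbp1 1.94-fold and Dnajb9 2.33-fold, and Sdf2l1 fell 1.69-fold. Without replicate 1 at 2 days or replicate 3 at 4 days, or under cyclic loess or quantile normalization, 1 was lower. The share of secretory pathway genes that was lower did not exceed the 12.9% of all genes.

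Few lipid synthesis genes were called, in both directions and at shares near the 10.3% higher and 12.9% lower over all genes. Of 19 cholesterol synthesis genes, 3 were lower and 1 higher (median log2 difference -0.05), or 3 higher under cyclic loess. Idi1 fell from 555, 504 and 499 to 202, 240.4 and 266 (2.21-fold, 95% CI 1.61 to 3.03), Hmgcs1, an early step of the pathway, 1.54-fold and Cyp51 1.51-fold, whereas Hsd17b7 rose 1.97-fold. Of 17 fatty acid genes, 2 were higher and 3 lower (median log2 difference -0.08). Fatty acid synthase, Fasn, fell from 310.2, 315 and 264 to 131, 143 and 128 (2.20-fold, 95% CI 1.87 to 2.60) and Acaca, which makes its substrate, 2.12-fold. Fabp5 was lower (1.59-fold), a call lost, at a log2 difference of -0.54, without replicate 2 at 4 days. Without replicate 3 of either group 1 gene of this list was higher. Scd1, a desaturase, was higher (256, 245 and 48.7 and 566, 505 and 649, 3.93-fold, 95% CI 2.16 to 7.14), with replicate 3 low at 2 days, and without that array its log2 difference was 1.19 in place of 1.97.

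Of 20 lysosome and cathepsin genes, 8 were higher and 2 lower (median log2 difference 0.35). Beside Ctla2a and Cd63, the related inhibitor gene Ctla2b rose 7.58-fold (95% CI 5.56 to 10.3) and Lamp2, a lysosomal membrane protein gene, 3.40-fold (95% CI 2.79 to 4.13). Granzymes and lytic genes had 4 of 13 higher and 1 lower: Gzmb, granzyme B, rose from 15.5, 12.4 and 14.3 to 30.9, 35.7 and 60.0 and Nkg7 from 16.6, 16.1 and 16.2 to 64.1, 40.9 and 26.8, both still dim. The 1 lower gene, the granzyme B inhibitor Serpinb9, was below background throughout (12.6, 21.4 and 18.1 and 7.75, 10.3 and 8.41), and Srgn, the proteoglycan of secretory granules, was abundant and rose 2.14-fold. Of 24 chemokine receptor, integrin and homing genes, 4 were higher and 3 lower (median log2 difference 0.1). These shares are not far from the 10.3% higher and 12.9% lower over all genes. Selplg, the selectin ligand PSGL-1, rose 3.07-fold (95% CI 2.47 to 3.81), the integrin chains Itgav and Itgb7 2.24-fold and 1.93-fold, and Itgb1 fell 2.05-fold (95% CI 1.67 to 2.51).

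Interferon-stimulated genes showed no common direction. Of 21 measured, 5 were higher and 4 lower (median log2 difference -0.01), and 3 were higher without replicate 1 or 2 at 4 days. Over all genes 10.3% were higher and 12.9% lower. Stat2, a subunit of the interferon-activated complex, rose from 60.5, 49.8 and 51.6 to 259, 248 and 193 (4.30-fold, 95% CI 3.38 to 5.48) and Ddx58, the RNA sensor RIG-I, 2.46-fold (95% CI 1.86 to 3.25). Ifit2 fell from 64.1, 82.5 and 78.7 to 20.7, 32.6 and 28.0 (2.80-fold, 95% CI 2.27 to 3.46) and Ifi203 from 28.9, 58.7 and 90.3 to 16.6, 12.2 and 13.7 (3.82-fold, 95% CI 2.56 to 5.68).

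**Figure D4:**
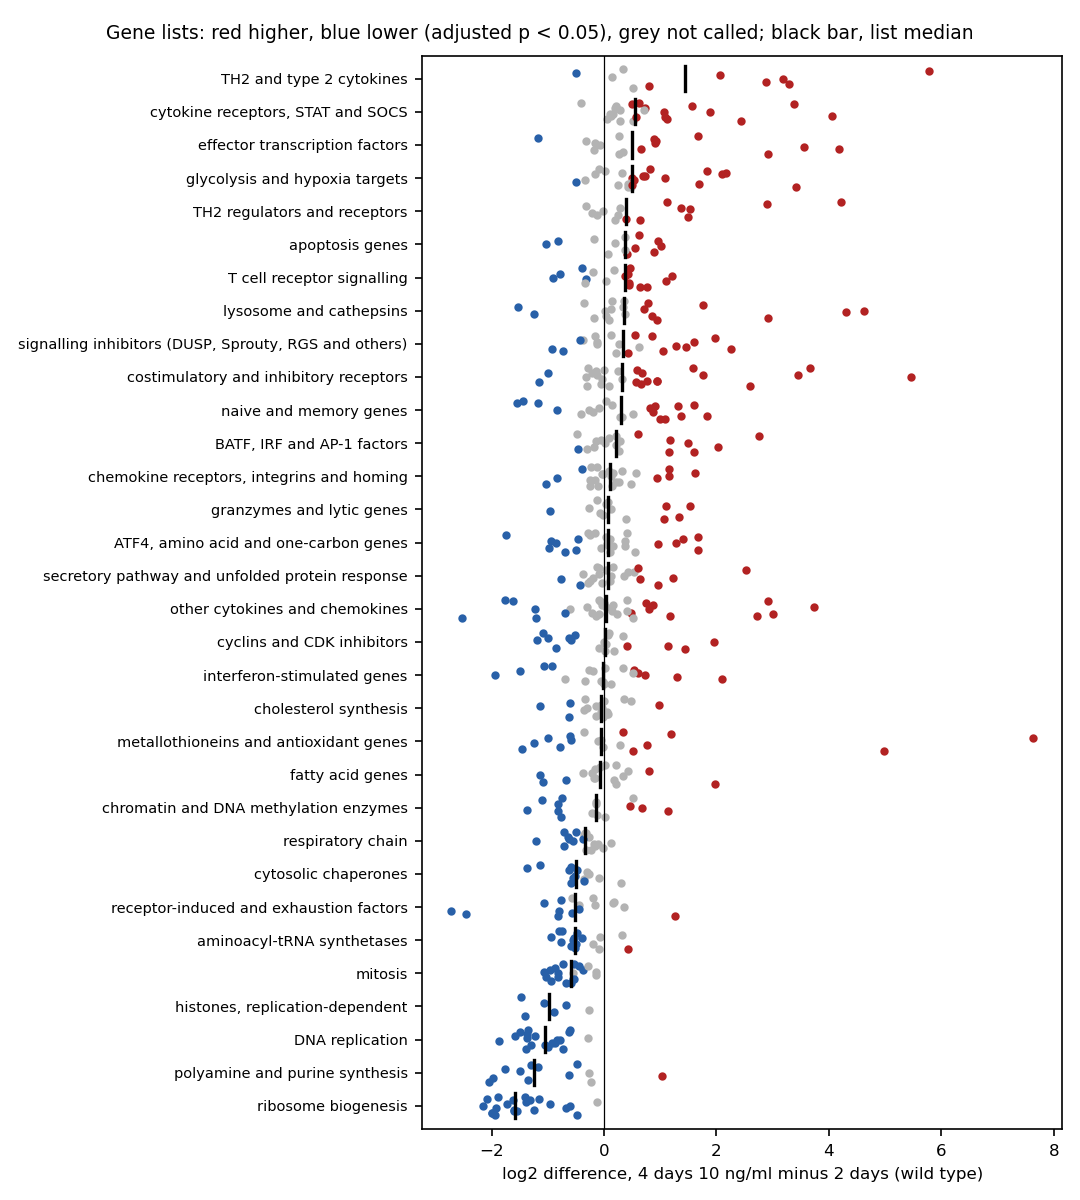
Log2 difference, 4 days with 10 ng/ml minus 2 days in WT cells, of each measured member of 32 gene lists (red higher, blue lower, grey not called); the black bar is the list median. Medians run from -1.58 for ribosome biogenesis to 1.43 for TH2 and type 2 cytokines.

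Markers checked the labelled cell type. Of 9 T cell identity markers 8 were higher and 0 lower at 4 days, and 5 were higher without replicate 1 or 2 at 2 days or replicate 2 at 4 days. Cd2 rose 1.75-fold and Cd28 1.498-fold, and the summed intensity of the list went from 8341 to 8675 at 2 days to 10789.5 to 11717 at 4 days. All 7 B cell markers, all 10 granulocyte, mast cell and basophil markers and all 5 erythroid and platelet markers were at or below an intensity of 30.2 in both groups. So were 8 of 9 markers of CD8, NK and innate-like T cells, 6 of 8 of macrophages and 10 of 12 of dendritic cells and class II. Prg2 was called higher at 9.74, 9.19 and 11.3 and 14.0, 15.1 and 11.1, levels below background, and that call was lost without replicate 1 or 2 at 2 days (log2 differences of 0.38 and 0.34) or replicate 1 or 2 at 4 days (0.37 and 0.31), with a replicate block (adjusted p = 0.0587), with an offset of 16 (0.17) and in the fit on the compared groups alone (adjusted p = 0.0757). Of the B cell markers, 1 passed the test when replicate 1 at 2 days, or replicate 1 or 3 at 4 days, was left out.

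The 2 other-cell markers that rose clearly were H2-Ab1 and Fcgr3. H2-Ab1, a class II antigen presentation gene, rose from 95.5, 101 and 61.9 to 877, 590.3 and 866 (9.09-fold, 95% CI 6.28 to 13.2). The genes that accompany it in antigen-presenting cells, named after their values were seen, did not pass the test: H2-Aa read 18.2 and 17.1 (group means), H2-Eb1 26.2 and 28.1, the class II activator Ciita 13.002 and 13.4, and Cd74 44.0 and 38.2. The dendritic cell markers Itgax, Flt3 and Zbtb46, chosen in the same way, were all at or below background at both times. The summed list went from 252 to 312 at 2 days to 797 to 1077 at 4 days, and H2-Ab1 gave most of the sum at 4 days. Fcgr3, an antibody receptor gene, rose from 28.9, 24.2 and 20.5 to 105, 58.3 and 87.1 (3.34-fold, 95% CI 2.45 to 4.56), while the macrophage markers Csf1r, Adgre1 and Lyz2, also chosen after their values were seen, stayed below background. Whether other cells had a part in the other results was not tested.

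The same step was then set beside that of cells without Batf and Batf3. The deleted genes were low there: Batf read 29.0, 38.4 and 30.1 at 2 days and 43.0, 44.4 and 52.1 at 4 days, and Batf3 25.5, 22.5 and 31.9 and 33.3, 24.7 and 31.5, and where the probes lie relative to the deleted parts was not checked. In DKO cells 684 genes (3.43%) were higher and 349 (1.75%) lower at 4 days with 10 ng/ml than at 2 days, and the WT and DKO comparisons share no arrays. Of the WT rises, 395 were also called higher in DKO cells, which is 19.2% of the WT list and 57.7% of the DKO list. Of the WT falls, 277 were also called lower (10.8% and 79.4%), and 8 WT rises and 24 WT falls were called the opposite way. Among the 35 genes that rose at least 10-fold in WT cells, 9 (25.7%) were called higher in DKO cells. A test of the difference between both changes called 1514 genes (7.59%), of which 650 (3.26%) were more positive and 864 (4.33%) more negative in WT cells, and under cyclic loess 712 and 642. Leaving out DKO replicate 2 or WT replicate 2 at 4 days lowered the last count to 551 and 573. This test uses the WT arrays that also gave the WT calls, so the 2 are not independent.

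Mt2 had the most positive difference between the genotypes. In DKO cells Mt2 read 13.1, 10.96 and 13.5 at 2 days and 12.3, 18.1 and 51.5 at 4 days, a change 6.77 ± 0.42 (log2, SE) smaller than in WT cells (adjusted p = 1.02e-10). Without DKO replicate 3 at 4 days, its highest array, the difference was 7.37. Il21 stayed at background in DKO cells (6.99, 7.81 and 10.8 and 5.91, 5.56 and 7.87), with a difference of 6.18 ± 0.28. The same held for Lilr4b (5.92 ± 0.36), Ifitm3 (5.76 ± 0.62), Lilrb4a (5.61 ± 0.34), Tgm2 (4.90 ± 0.32) and Gpnmb (4.71 ± 0.35). Gpr65, an acid-sensing receptor, rose 9.14-fold in WT cells (82.4, 26.3 and 52.1 to 376, 375 and 610.3) and fell in DKO cells (112, 97.7 and 111 to 37.3, 40.9 and 26.6), a difference of 4.82 ± 0.39.

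Among the cytokines, the differences were 3.33 for Il10, 3.10 for Il24, 2.85 for Il13, 2.76 for Inhba and 2.16 for Il5, each called. Il13 in DKO cells read 39.7, 78.5 and 50.9 at 2 days and 44.6, 61.7 and 62.9 at 4 days. Of the 10 type 2 cytokine genes, 5 changed more positively in WT cells and 1, Csf2, more negatively (-1.37). The effector factors Ahr (3.69), Prdm1 (2.14) and Hif1a (1.89) also differed. Hif1a read 417, 389 and 382 and 346, 314 and 358 in DKO cells, where it did not pass the test (adjusted p = 0.33).

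The hypoxia targets named above rose in both genotypes. Ndrg1 went from 31.3, 23.9 and 34.0 to 221, 242 and 317 in DKO cells, and the difference between the changes was 0.29 ± 0.26 (adjusted p = 0.63). For Ero1a it was -0.16 ± 0.27, for Slc2a3 -0.37 ± 0.34 and for Egln3 -0.24 ± 0.31, none of them called. In this list 15 of 23 genes were called higher in DKO cells, and 1 had a more negative change in WT cells and 0 a more positive one (9 and 0 at an unadjusted p under 0.05 in limma, where 11% and 8.5% of all genes tested were more negative and more positive). H2-Ab1 also rose in DKO cells (37.0, 28.3 and 31.8 to 203, 264 and 213, difference 0.38 ± 0.36, adjusted p = 0.661), as did Ccl5 (34.0, 42.9 and 30.4 to 204, 237 and 254, difference 1.03 ± 0.38, not called). Without WT replicate 3 at 4 days, the lowest of its group for Ccl5, that difference was 1.58 and was called. Levels were lower in DKO than in WT cells at 4 days on every array for Ndrg1, Ero1a and H2-Ab1.

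Ribosome biogenesis genes fell in both genotypes, and less in DKO cells for part of the list. In DKO cells 17 of 22 were lower, with a median log2 difference of -0.74 against -1.58 in WT cells, and the change was called more negative in WT cells for 10. Nop56 differed most of the genes named here (-1.30 ± 0.21). DNA replication genes had 2 of 19 lower in DKO cells, and 13 changed more negatively in WT cells, such as Tyms (515, 469 and 430.1 and 414, 438 and 378 in DKO cells, -1.67 ± 0.25). In the mitosis list 0 of 19 were called in DKO cells and 11 changed more negatively in WT cells, among them Kif11 (-1.12 ± 0.16). At an unadjusted p under 0.05 (limma) 1 mitosis gene was higher and 0 were lower in DKO cells, against 8.77% and 7.84% of all genes tested.

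Other genes changed more positively without Batf and Batf3. Csn2, the milk protein beta-casein, was at background in WT cells (15.8, 15.5 and 14.9 and 17.2, 14.3 and 13.8) and rose in DKO cells from 18.8, 20.2 and 22.6 to 685, 1235 and 1356, a difference of -5.71 ± 0.43. Scd1 rose in DKO cells from 40.2, 15.03 and 15.6 to 936, 1305 and 989 (-3.68 ± 0.59, and -4.47 without WT replicate 3 at 2 days). Nrn1, a membrane-anchored neuritin gene, rose in both (144, 167 and 132 to 418, 263 and 491 in WT, 104, 75.6 and 39.4 to 1079, 1096 and 1036 in DKO cells, -2.62 ± 0.49). In the cholesterol list 15 of 19 genes were higher in DKO cells, against 1 in WT cells, and 12 changed more negatively in WT cells; Hmgcs1 rose from 382, 299.5 and 272 to 634, 688 and 619 in DKO cells, where WT cells fell (-1.67 ± 0.19).

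Several genes that fell in WT cells changed otherwise in DKO cells. Nr4a3 read 198, 223 and 229 and 191, 270.3 and 321 in DKO cells (-2.95 ± 0.34), Tox 300.0, 263 and 271 and 393, 363 and 315 (-2.81 ± 0.21) and Trat1 196, 131 and 84.2 and 315, 195 and 197 (-3.12 ± 0.37). Cd40lg differed by -2.05 ± 0.28 and Itih5, a matrix protein gene, by -2.69 ± 0.30. Qser1 differed by -2.71 ± 0.61, or by -2.04 without DKO replicate 3 at 2 days, and its WT arrays were dim (43.7, 13.7 and 26.1 and 10.8, 12.4 and 8.91). Its fall within WT cells was lost without any 1 of 5 arrays, all but replicate 2 at 2 days. Log2 differences were -0.84 and -1.21 without replicate 1 or 3 at 2 days. Without replicate 1, 2 or 3 at 4 days they were -1.25, -1.35 and -1.11. The call was also lost with trend and robust moderation (adjusted p = 0.074) and with an offset of 16 (-0.66). A dimmer probe set of Qser1, not the one used, gave a log2 difference of -1.32 in WT cells (limma, adjusted p = 0.00013). Il2 fell in WT cells, and its difference was not called (-1.60 ± 0.63, adjusted p = 0.141), but without WT replicate 3 at 4 days it was -2.12 and was called.

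**Figure D5:**
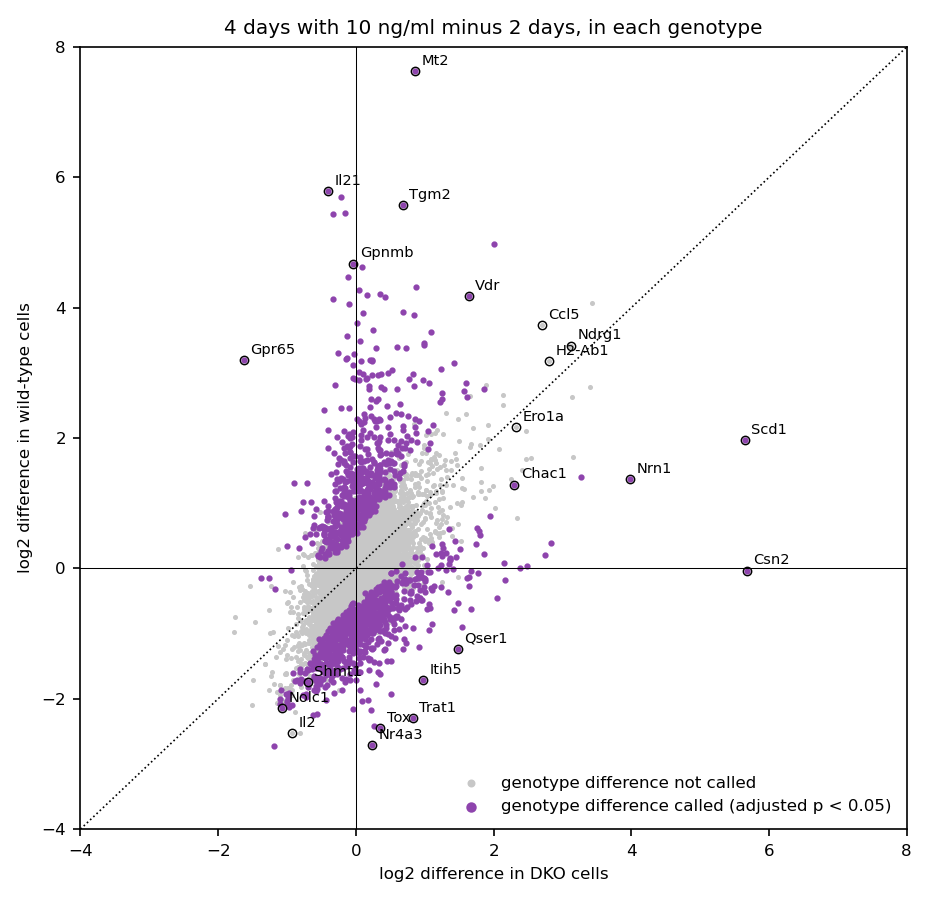
Log2 difference, 4 days with 10 ng/ml minus 2 days, in DKO cells (x axis) and WT cells (y axis) for 19938 genes; purple marks the 1514 genes whose change differed between genotypes and the dotted line is equality. Mt2, Il21 and Tgm2 lie near 0 on the DKO axis and high on the WT axis, Ndrg1, Ero1a and H2-Ab1 lie near the line, and Csn2 lies near 0 on the WT axis.

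WT cells at 4 days with 2.2 ng/ml share the day 2 arrays with the main comparison. Against those arrays 944 genes (4.73%) were higher and 1286 (6.45%) lower. The lower genes included 22 of 22 for ribosome biogenesis, with a median log2 difference of -0.97 against -1.58 with 10 ng/ml. They also included 10 of 12 for polyamine and purine synthesis and 10 of 16 aminoacyl-tRNA synthetases. In the DNA replication list 9 of 19 were lower with 2.2 ng/ml, and in the mitosis list 0 of 19. The doses were also compared directly: 1523 genes (7.64%) were higher and 1499 (7.52%) lower with 10 ng/ml. Batf showed no called difference between doses (1424, 1451 and 1652 at 2.2 ng/ml, log2 difference 0.08 ± 0.16, adjusted p = 0.827). Batf3 (33.7, 29.7 and 23.5) and Irf4 (338, 267 and 588) were both lower at 2.2 ng/ml, by 2.33 ± 0.19 and 1.79 ± 0.21. Replicate 3 at 2.2 ng/ml was the highest of its group for Irf4, and also for Il13 and Il24.

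Mt2 stayed at background with 2.2 ng/ml (12.7, 14.9 and 11.1), and Tgm2 near its level at 2 days (53.2, 45.2 and 67.9). The differences were 7.36 ± 0.30 for Mt2, 5.22 ± 0.35 for Mt1, 5.14 ± 0.23 for Tgm2, 4.64 ± 0.32 for the gap junction gene Gja1, 4.62 ± 0.24 for the creatine synthesis gene Gatm and 4.39 ± 0.24 for Lilrb4a. Il13 with 2.2 ng/ml (48.6, 41.5 and 168) was below every array at 2 days, and Il24 (30.4, 23.4 and 113) overlapped them, with differences between doses of 4.85 ± 0.34 and 4.83 ± 0.35. Without replicate 3 at 2.2 ng/ml these became 5.49 and 5.53. Il4 rose with dose as well (22.2, 18.1 and 99.9 at 2.2 ng/ml, 3.25 ± 0.35, and 4.03 without replicate 3 at 2.2 ng/ml, the highest of its group), although it had not passed the test from 2 days to 4 days.

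Il10 was high at both doses. Its arrays with 2.2 ng/ml read 472, 264 and 546, and the difference between doses did not pass the test (0.44 ± 0.26, adjusted p = 0.326). Gpr65 also showed no called difference (346, 299 and 399 at 2.2 ng/ml, 0.35 ± 0.28), and Gzmb was higher with the low dose (188, 328 and 101, -2.19 ± 0.27).

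The largest differences in the other direction were genes kept or raised at 2.2 ng/ml. Tox read 395, 412 and 305 with 2.2 ng/ml, above its level at 2 days, and differed by -3.75 ± 0.15. Trat1 read 547, 563 and 469.9 (-4.69 ± 0.26) and Eomes 232, 186 and 182 (-3.38 ± 0.30). Ms4a4b, a membrane protein gene of naive T cells, read 309, 386 and 163 (-4.86 ± 0.31). It did not pass the test between 2 days and 4 days with 10 ng/ml (log2 difference -0.74) but did without replicate 1 at 2 days (-1.01). Ifi203 (-4.03), Dapl1 (-3.45), Slfn1 (-2.98) and Tespa1 (-2.92) completed the 8. In the glycolysis and hypoxia list, 18 of 23 genes were higher with 10 than with 2.2 ng/ml and 0 lower, and in the mitosis list 14 of 19 were lower and 0 higher.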

How the data were processed

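The values used here were linear intensities deposited by the authors in 1 table of 35556 probe sets and 24 arrays, made with RMA per the submitters' processing notes (the version is not given in the sources used here). RMA subtracts background, normalizes arrays by quantiles and summarises probes, so a change shared by all genes would not be seen. They ran from 1.95 to 14645 over the 24 arrays. Array medians lay between 26.4 and 28.9 on the 6 arrays of the main comparison, and WT replicate 3 at day 0 had a median of 31.6. The file holds no detection calls, and the 3 arrays a group limit the precision. Probe sets with 1 gene symbol (21789) were kept, and 1621 with several and 12146 with none were left out; a gene was its probe set with the highest mean, for 19938 genes, of which 999 had several. The platform annotation's symbols were checked against RefSeq (21698 probe sets matched).

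Intensities were turned to log2 with no offset or filter. One limma model (3.58.1, R 4.3.3) of 8 group means was fitted on all 24 arrays, with 16 residual and 7.49 prior degrees of freedom. Fold changes are 2 to the power of the log2 difference, with 95% intervals, and tests are two-sided. The genotype comparison tested the WT change minus the DKO change. On simulated data for the WT comparison (19938 genes), 17, 45, 50 and 50 of 50 genes changed by log2 steps of 0.5, 1, 2 and 3 were recovered. No other gene was changed in the simulation, noise was independent between genes, and 4 unchanged genes were called. In the data 23.2% of genes were called, so recovery there may differ.

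Genes were named by rule: Batf, Batf3 and Irf4; the 15 largest called rises and falls with non-overlapping arrays; up to 4 called members a list with the smallest p; every member of the cytokine and BATF, IRF and AP-1 lists; and the 8 largest genotype and dose differences each way. Predicted genes, small RNAs, antigen receptor segments, Xist and Y-linked genes were skipped. The members and the 39 lists (646 genes measured) were chosen with earlier results of these data known, and others were named after their values were seen, as stated there. Alternatives were other normalizations, probe set rules, variance models, an offset of 16, a filter on dim genes, the compared groups alone, array weights, a replicate block and leaving out each array.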

Additional observations from a re-analysis of the deposited data

Results flagged for a closer look

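The change from 2 days to 4 days with 10 ng/ml differed between WT and DKO cells, by a test of the difference itself (limma, Benjamini-Hochberg), for 650 genes that moved more positively and 864 that moved more negatively in WT cells. The values that follow are the WT change minus the DKO change on the log2 scale. The most positive were 6.77 for Mt2, 6.18 for Il21, 5.92 for Lilr4b, 5.76 for Ifitm3 and 5.61 for Lilrb4a, followed by 4.90 for Tgm2, 4.82 for Gpr65 and 4.71 for Gpnmb. The most negative were -5.71 for Csn2, -3.68 for Scd1, -3.12 for Trat1, -2.95 for Nr4a3 and -2.81 for Tox, followed by -2.71 for Qser1, -2.69 for Itih5 and -2.62 for Nrn1. Csn2 was at background in WT cells, and its difference lay in the DKO arrays. Groups of 3 arrays are too small for a test of single outlying arrays, so none was made.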

How the results depend on the processing

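Of the 239 named genes, none of those called changed sign under any alternative run in the WT, genotype or dose comparison; of those not called, 20 of 51, 31 of 104 and 29 of 80 did in at least 1. The balance of calls turned under cyclic loess, to 2304 higher and 2163 lower in the WT comparison and 712 and 642 in the genotype comparison (574 and 573 without WT replicate 2 at 4 days); the dose comparison was near even at 1523 and 1499, and quantile normalization gave 1458 and 1591. Leaving out 1 array in turn gave 1668 to 1988 genes higher and 2094 to 2355 lower in the WT comparison, 510 to 706 more positive and 551 to 929 more negative in the genotype comparison (551 without DKO replicate 2 at 4 days and 573 without WT replicate 2 at 4 days), and 1132 to 1439 and 1145 to 1477 in the dose comparison. Fitted on the compared groups alone, 983 genes were lower with 10 than with 2.2 ng/ml in place of 1499; that fit has fewer arrays. All other counts over all genes stayed within 1.5 times. With replicate number as a block (replicate block) the counts were 2063 and 2578 in the WT comparison, 656 and 853 in the genotype comparison and 1514 and 1490 in the dose comparison. Same-numbered WT arrays of the 2 times did not deviate together (correlations of -0.00832, 0.0225 and 0.0334). Between the doses they were 0.0544, 0.162 and 0.264. The main fit did not pair samples by replicate number, and the labels do not say whether the number marks a shared source. Some genes, such as Il2, Tnf, Il13 and Il3, were highest on replicate 3 at both times in WT cells. Of 239 named genes, 188 were called in the WT comparison, 175 of them in every alternative, and 13 were lost in at least 1. The corresponding numbers were 135 called and 25 lost for the genotype difference, and 159 and 27 for the dose difference; the cause was not tested. Signal over background limits dim genes: 9384 genes were at or below an intensity of 30.2, the median of all probe sets, at both times. An offset of 16 shrank the folds of genes rising from background without ending a call named as one of the 15 largest rises. The day 2 dose and the source of the replicates were not given in the labels.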
